A study of Mus musculus with 56 samples.

Results

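TH1 cells lacking either ODC or DOHH were compared by asking, gene by gene, whether the deletions moved transcript levels by different amounts or in opposite directions. For each gene the Dohh effect was the log2 ratio of Dohh-/- to its own wild-type (WT) libraries, the Odc effect was the log2 ratio of Odc-/- to its own WT libraries, and the difference of effects was the Dohh effect minus the Odc effect. All 14 TH1 libraries of the 56 samples in the series entered: 3 Dohh-/-, 3 Dohh WT, 4 Odc-/- and 4 Odc WT. Of 47937 genes in the count tables, 11348 were expressed in both tables and were tested, after 288 genes were left out because 1 table held at least 500 counts and the other at most 5.

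The cells came from naive C57BL/6 CD4+ T cells that were taken by negative selection from spleen and lymph nodes. They were activated through CD3 (antibody at 5 µg/mL) and CD28 (antibody at 2 µg/mL) in the presence of IL-2 at 100 U/mL, polarized by blocking IL-4 (antibody at 4 µg/mL) while adding IL-12 and IL-2 (each at 10 ng/mL), and harvested on day 4. Donor age was usually between 6 and 10 weeks. Odc-/- cells came from Odc flox/flox mice with loxP sites around exons 9 to 11, Dohh-/- cells from Dohh flox/flox mice with loxP sites around exons 2 to 4, and both carried Cre under the CD4 promoter. The control mice lacked Cre. CD4-Cre acts in developing αβ T cells before the CD4 and CD8 lineages part, so CD4 T cells carry the deletion from the thymus on, while B cells and most γδ T cells do not.

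ODC makes putrescine from ornithine, the first committed step of polyamine synthesis, and putrescine is the precursor of spermidine. Spermidine donates the side chain that DHPS attaches to a lysine of the translation factor eIF5A, and DOHH hydroxylates that residue to complete hypusine. Odc deletion therefore acts at the top of the pathway, on every use of polyamines, and Dohh deletion at its last step, where polyamines are still made. TH1 cells are helper T cells governed by the transcription factor T-bet (Tbx21) and known for interferon-γ (Ifng).

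The libraries held 6873447 to 11307397 counts, so that 3 counts stood for 0.25 to 0.51 CPM, the counts scaled to library size. Of the markers of CD4 T and TH1 cells, Cd3e, Lck, Ifng and Tbx21 were high in every library, while in Dohh-/- libraries Cd4, Cxcr3 (1.16 to 3.43 CPM) and Il12rb2 (84.9 to 328 CPM) were below all Dohh WT libraries, and Stat4 was at 3.4 CPM in replicate 2. A library stood apart in each of 3 groups. Dohh-/- replicate 2 had a summed level of 365 CPM over 18 myeloid markers, against 42.7 and 46.0 CPM in the other Dohh-/- libraries. Odc-/- replicate 1 had 1384 CPM over 12 B cell markers, against 309 to 374 CPM in the other Odc-/- libraries, and lay between the WT and the other Odc-/- libraries on the first principal component. Odc WT replicate 4 had 1783 CPM of Ifng, against 493 to 668 CPM in the other Odc WT libraries. It lay between the other Odc WT and the Odc-/- libraries on the first principal component as well, at 31.4 against 59.6 to 62.9 in the other Odc WT libraries, while Odc-/- replicate 1 was at 8.02 and the other Odc-/- libraries at -38.6 to -44.4. All genes were refitted without these 3 libraries, and the values are given below where a call or a count changed.

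Odc-/- and Dohh-/- name the libraries by their labels throughout, because transcript counts of the targeted genes gave no check of them. Odc1 was at 401, 442, 397 and 689 CPM in Odc WT and 400.4, 639, 638 and 619 CPM in Odc-/-, with overlapping groups. Odc WT replicate 4 was above every Odc-/- library for Odc1 and Odc-/- replicate 1 was at the level of the other Odc WT libraries, so that neither label could be checked from this gene. Dohh was at 38.4, 38.1 and 35.6 CPM in Dohh WT and 106, 159 and 47.7 CPM in Dohh-/-, higher in all 3. Counts covered all exons of a gene, the deleted ones and the rest, and 47.5% of Dohh's exon length overlapped other genes. Within the hypusine pathway 0 of 4 tested genes were called by edgeR's quasi-likelihood test, 0 had an unadjusted p below 0.05, and DESeq2 and limma voom called 0. The differences were 0.23 ± 0.42, adjusted p = 0.76 for Dohh, 0.69 ± 0.37, adjusted p = 0.25 for Eif5a, which encodes eIF5A, and 0.41 ± 0.33, adjusted p = 0.44 for Dhps. Eif5a was called when Dohh-/- replicate 3 was left out (difference 1.01, adjusted p = 0.0068), the 1 fit without a library that called a gene of this pathway. Without the 3 libraries that stood apart, the differences of Dohh and Dhps were -0.47 and -0.13, again not called.

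Past 2-fold at an adjusted p below 0.05, 1716 genes rose and 1598 fell with Dohh deletion (29.2% of 11348) and 827 rose and 1196 fell with Odc deletion (17.8%). The deletions moved 806 of 11348 genes differently (7.1%), by more than 2-fold at an adjusted p below 0.05. The Dohh effect lay above the Odc effect for 367 of these (3.23%) and below it for 439 (3.87%). For 400 genes only the Dohh effect passed adjusted p 0.05, for 106 only the Odc effect, and for 3 neither. Another 186 genes moved the same way in both deletions but further with Dohh, and 4 moved the same way but further with Odc. The rest moved in opposite directions, 80 without passing 2-fold in both deletions and 27 past 2-fold in both (0.238% of genes tested), here called opposed. Without the 3 libraries that stood apart 1356 genes were called, 653 of the 806 among them, and 51 genes were opposed, 24 of the 27 among them. The class that moved further with Odc held 220 genes in that fit and 99 when Odc-/- replicate 1 alone was left out, and the class with an Odc effect alone held 404 and 270. Over all fits without 1 library these classes ran from 1 to 99 and from 43 to 270 genes. Without Dohh WT replicate 2 they held 1 and 43. Leaving out Dohh-/- replicate 3 gave 1872 called genes, Dohh WT replicate 1 gave 465 and Dohh WT replicate 2 gave 422. The class with a Dohh effect alone held 895, 229 and 195 genes in those fits, and the class that moved further with Dohh held 612, 113 and 116. Leaving out any 1 of Odc-/- replicates 3 and 4 or Odc WT replicates 1, 2 and 3 also took the latter class to between 113 and 122 genes.

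**Figure D1:**
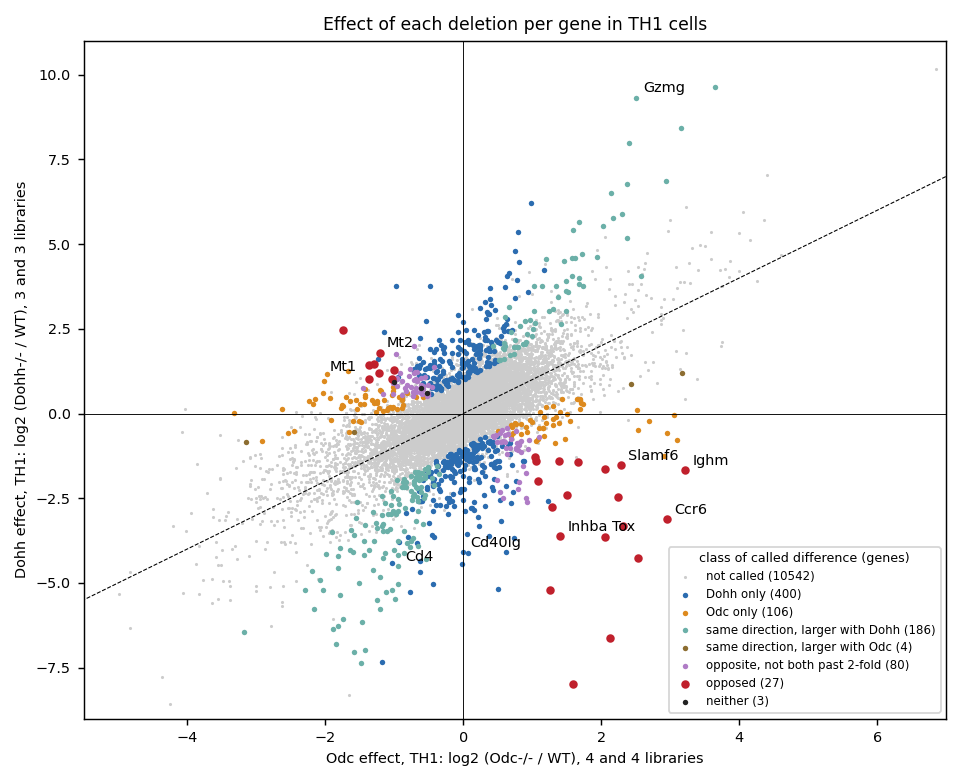
Odc effect (x axis, log2 ratio of Odc-/- to WT) against Dohh effect (y axis, log2 ratio of Dohh-/- to WT) for the 11348 genes tested in TH1 cells. Each point is a gene, coloured by the class of its called difference with the number of genes in brackets, and the dashed line marks equal effects. The 27 opposed genes lie in the upper left and lower right quadrants, 19 of them in the lower right.

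The groups compared came from separate mouse lines and separate tables, and WT levels differed between the tables as well. WT levels were called different for 642 genes (5.66%), for 119 of the 806 genes called above (14.8%) and for 523 of the other 10542 (4.96%). A difference of effects can thus sit on unequal WT levels, and both WT groups are given for the genes described library by library. The labels do not say which animals the libraries came from, and p-values measure the spread between these libraries.

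Of the opposed genes, 19 fell with Dohh deletion and rose with Odc deletion. Ccr6, the receptor for CCL20 that marks TH17 cells, some regulatory T cells and B cells, was at 1.09, 1.21 and 1.27 CPM in Dohh WT and 0.105, 0 and 0.221 CPM in Dohh-/-, and at 2.2, 1.5, 1.79 and 3.59 CPM in Odc WT and 38.2, 14, 10.6 and 8.01 CPM in Odc-/-. The groups of each table did not overlap. The difference of effects was -6.08 ± 1.02, adjusted p = 0.0024, from 3 counts in all in Dohh-/- against 36 in WT (WT to Dohh-/- ratio 9.57, exact 95% interval 3.02 to 48.6, counting error only). Cxcr5, the receptor for CXCL13 that brings cells into B cell follicles, was at 4.26, 3.62 and 3.57 CPM in Dohh WT and 1.05, 0.85 and 1.66 CPM in Dohh-/-, against 7.16, 5.32, 5.51 and 12.7 CPM in Odc WT and 72.2, 20.8, 20.5 and 14.2 CPM in Odc-/- (difference -3.69 ± 0.78, adjusted p = 0.01). Every Odc-/- library was above every Odc WT library for Cxcr5, and replicate 1 was far above the rest.

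Slamf6, a SLAM family receptor through which T and B cells contact each other, and Gpr83, an orphan receptor gene found in regulatory T cells, moved in the same way. Slamf6 was at 7.51, 8.15 and 8.28 CPM in Dohh WT and 2.42, 4.59 and 1.55 CPM in Dohh-/-, and at 4.41, 2.86, 5.1 and 10.3 CPM in Odc WT and 24.1, 37.9, 22.4 and 26.4 CPM in Odc-/- (difference -3.81 ± 0.56, adjusted p = 8.6e-04). Gpr83 was at 5.68, 5.03 and 6.21 CPM in Dohh WT, 0.632, 1.19 and 0 CPM in Dohh-/-, 3.58, 3.41, 3.72 and 1.79 CPM in Odc WT and 10.8, 19, 13.4 and 19.4 CPM in Odc-/- (difference -5.64 ± 0.69, adjusted p = 2.4e-04). No group of either table overlapped its partner for these receptors. Adgrl1, an adhesion G protein-coupled receptor, was the most abundant opposed gene of this direction apart from Ighm, at 51.4, 54 and 45 CPM in Dohh WT, 23.5, 13.1 and 19.6 CPM in Dohh-/-, 34.2, 36.4, 32.9 and 44.2 CPM in Odc WT and 64.6, 83.3, 68 and 90.5 CPM in Odc-/- (difference -2.47 ± 0.27, adjusted p = 1.4e-04). It lay outside the rule for named genes, as did Gzmb, Prf1, Klrk1, Klrd1, Trac, Il12rb2, St8sia6 and Fam84a, and all 9 were chosen after their values were seen.

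Among secreted and nuclear factors, Inhba, which encodes the subunit of activin A, was at 8.1, 5.93 and 5.75 CPM in Dohh WT and 0.632, 0.17 and 0.664 CPM in Dohh-/-, and at 10.2, 8.59, 8.41 and 10.9 CPM in Odc WT and 27.1, 34.7, 16 and 23.4 CPM in Odc-/- (difference -5.03 ± 0.46, adjusted p = 5.4e-05). Tox, a nuclear factor of thymic CD4 development and of exhausted T cells, was at 4.84, 7.04 and 4.14 CPM in Dohh WT and 0.211, 0.68 and 0.443 CPM in Dohh-/- (10 counts in all), and at 1.24, 1.77, 1.38 and 0.828 CPM in Odc WT and 2.14, 9.95, 3.18 and 6.44 CPM in Odc-/- (difference -5.68 ± 0.76, adjusted p = 4.7e-04). Each group stood clear of its partner, although Dohh WT was already above Odc WT for Tox (log2 WT difference 2.02, edgeR adjusted p = 0.011). Nfix, a nuclear factor I gene, was at 5.26, 6.54 and 4.95 CPM in Dohh WT, 2, 3.57 and 0.996 CPM in Dohh-/-, 4.68, 4.91, 4.13 and 6.62 CPM in Odc WT and 7.85, 18.7, 13 and 13.9 CPM in Odc-/- (difference -2.79 ± 0.51, adjusted p = 0.0043), and Amigo2, which encodes a membrane adhesion protein, followed with 3.84, 9.96 and 6.56, 0.526, 2.72 and 0.111, 5.1, 4.09, 3.86 and 6.9 and 13.6, 10.9, 13.5 and 10.8 CPM in the same groups (difference -4.06 ± 0.76, adjusted p = 0.005). St8sia6, a sialyltransferase gene, and Fam84a had no counts in any Dohh-/- library. Against a floor of 3 counts over the group they were at least 31.2-fold and 12.1-fold lower than in Dohh WT, where they averaged 3.83 ± 0.63 and 1.49 ± 0.10 CPM (SD, n = 3). St8sia6 was at 1.38, 1.64, 1.24 and 1.38 CPM in Odc WT and 3.57, 7.09, 3.31 and 3.15 CPM in Odc-/-, and its WT level was higher in the Dohh table (log2 WT difference 1.44, edgeR adjusted p = 0.014). Fam84a was at 0.964, 0.955, 0.413 and 0.276 CPM in Odc WT and 2, 2.49, 2.51 and 4.6 CPM in Odc-/-. Both genes stood clear of Odc WT in every Odc-/- library.

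Of 4 tested B cell markers, 2 fell with Dohh deletion and 3 rose with Odc deletion, and Ighm did both. Ighm, the constant region of immunoglobulin M, was at 48.1, 62.7 and 46.8 CPM in Dohh WT, 7.69, 28.2 and 14.5 CPM in Dohh-/-, 32.1, 26.7, 38.2 and 56.3 CPM in Odc WT and 875, 191, 187 and 172 CPM in Odc-/- (difference -4.88 ± 0.81, adjusted p = 0.0023). The B cell receptor inhibitor Cd22 was at 4.68, 2.46, 7.3 and 7.45 CPM in Odc WT and 100.3, 27, 20.4 and 16.9 CPM in Odc-/-, and at 2.09, 2.51 and 1.84 CPM in Dohh WT and 0.632, 0.85 and 1.22 CPM in Dohh-/-, where the effect did not pass the test (difference -4.15 ± 0.94, adjusted p = 0.015). The sum of 12 B cell markers was 309 to 1384 CPM in Odc-/-, 61.8 to 133 CPM in Odc WT, 16.2 to 50.3 CPM in Dohh-/- and 66.2 to 83.2 CPM in Dohh WT, and 3 of the 4 tested B cell markers were called, all with the Dohh effect below the Odc effect, as were 3.87% of all genes. The B cell marker Ms4a1 was at 14.3 to 34.2 CPM in Odc-/- and at or below 0.34 CPM in every library of the Dohh table. Cd79b, another B cell marker, was higher in Dohh-/- (2.84, 6.12 and 6.09 CPM) than in Dohh WT (2.42, 1.61 and 2.07 CPM). It was at 39, 9.7, 6.88 and 5.52 CPM in Odc-/- and 2.34, 1.23, 2.07 and 3.86 CPM in Odc WT. The Odc-/- library with the most B cell transcripts, replicate 1, was the highest of its group for Ccr6, Cxcr5, Ighm, Cd22 and Lrrk2 and the lowest for Tox, Gpr83 and Nfix. The part of B cells in these results was not tested, and in bulk RNA fewer cells of a type cannot be told apart from less RNA per cell.

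**Figure D2:**
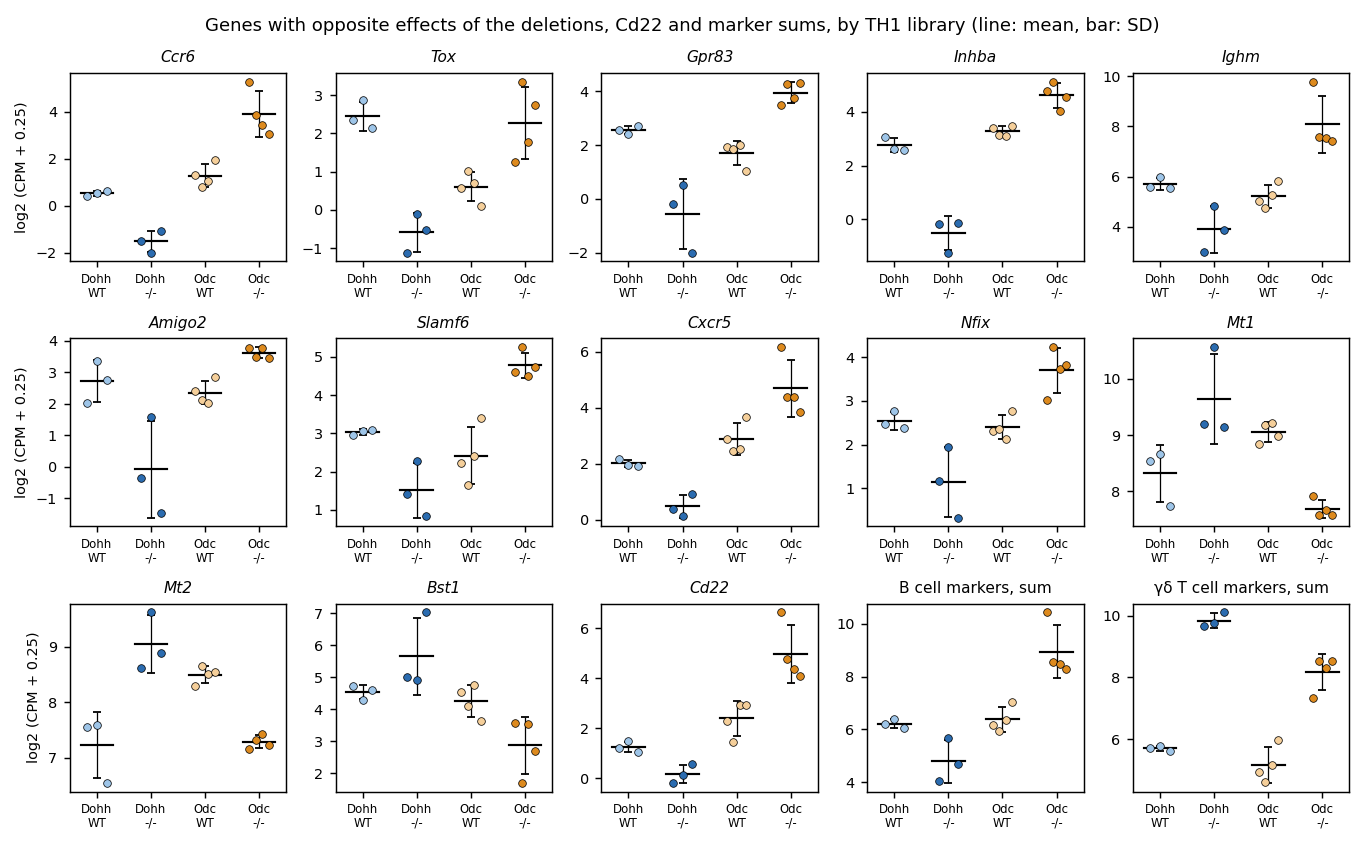
Level of 12 opposed genes, of Cd22 and of the summed B cell and γδ T cell markers in each TH1 library, as log2 of CPM plus 0.25 (y axis), by group (x axis). Points are libraries, lines are group means and bars are SD. From Ccr6 to Nfix the Dohh-/- points lie below their WT and the Odc-/- points above theirs, and for Mt1, Mt2 and Bst1 the order is turned round.

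Another 8 opposed genes rose with Dohh deletion and fell with Odc deletion, led in abundance by the metallothionein genes Mt1 and Mt2, neighbours on chromosome 8 whose small proteins bind zinc and copper and are induced by metals. Mt1 (chr8:94179082-94180327) was at 372, 407 and 214 CPM in Dohh WT and 588, 1510.3 and 567 CPM in Dohh-/-, against 457, 580.2, 596 and 504 CPM in Odc WT and 242, 192, 204 and 191 CPM in Odc-/-. Mt2 (chr8:94172664-94173568) was at 187, 193 and 93.4 CPM in Dohh WT and 392, 787 and 473 CPM in Dohh-/-, and at 312, 401, 362 and 374 CPM in Odc WT and 144, 159, 173 and 151 CPM in Odc-/-. All Dohh-/- libraries lay above their WT and all Odc-/- libraries below theirs for both genes. The differences were 2.79 ± 0.44, adjusted p = 0.0016 for Mt1 and 3.01 ± 0.37, adjusted p = 2.4e-04 for Mt2, and both were called in all 27 alternative fits. Dohh WT started below Odc WT for both genes (log2 WT difference -0.69 for Mt1, adjusted p = 0.14, and -1.20 for Mt2, adjusted p = 0.0072), and 73% of the exon length of Mt2 overlapped other annotated genes. Bst1, which encodes the cell surface enzyme CD157, was at 26, 19.3 and 23.9 CPM in Dohh WT, 31.9, 29.6 and 130.2 CPM in Dohh-/-, 23.1, 16.8, 26.7 and 12 CPM in Odc WT and 11.7, 2.98, 11.4 and 6.17 CPM in Odc-/- (difference 2.76 ± 0.73, adjusted p = 0.03). Its call was lost without any 1 of the 3 Dohh WT libraries, Odc-/- replicate 4 or Odc WT replicates 1 or 3 (adjusted p up to 0.091) and with no low-count filter (adjusted p = 0.064). Dohh-/- replicate 3 was the highest library for Bst1, and without it the difference was 1.69.

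Because Mt1 and Mt2 moved together, the bases before each gene's start (RefSeq, GRCm38.p6, plus strand) are shown in the sequences that follow, with capitals for matches to the core of the metal response element. That element is bound by the zinc-sensing factor MTF-1, and was searched as TGCACNC and TGCGCNC on both strands. The windows are chr8:94178839-94179088 for Mt1 and chr8:94172368-94172617 for Mt2.
Mt1: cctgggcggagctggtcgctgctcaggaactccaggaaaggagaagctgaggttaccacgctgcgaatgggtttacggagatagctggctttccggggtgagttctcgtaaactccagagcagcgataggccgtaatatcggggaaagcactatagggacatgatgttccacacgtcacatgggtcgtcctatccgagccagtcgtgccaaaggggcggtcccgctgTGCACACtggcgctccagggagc
Mt2: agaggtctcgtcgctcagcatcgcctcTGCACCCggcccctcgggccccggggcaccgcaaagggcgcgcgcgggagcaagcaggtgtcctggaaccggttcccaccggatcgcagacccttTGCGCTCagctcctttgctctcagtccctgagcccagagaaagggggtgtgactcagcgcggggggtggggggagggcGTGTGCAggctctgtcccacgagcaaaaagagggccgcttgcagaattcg
Mt1 held 1 match in these 250 bases and 3 in the 300 bases that also take in the first 50 of the transcript, and Mt2 held 3 and 4. Of 32851 windows of 300 bases in the promoter table, 25.7% held at least 1 match, 1.97% at least 3 and 0.517% at least 4. A match describes the letters only.

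Cytotoxic genes rose with both deletions for the most part, with the Dohh effect well ahead. Of 19 tested genes in a list of granzymes, perforin and NK receptors, 15 were called with the Dohh effect above the Odc effect and none below, where 3.23% of all genes were called above (median difference 2.88, against 0.06 over all genes tested). All 19 rose with Dohh deletion and 13 with Odc deletion. The count ranged from 13 to 16 over fits that left out 1 library and was 14 without the 3 libraries that stood apart. Gzmb, the main killer protease of cytotoxic T cells, was at 1035, 1131 and 1259 CPM in Dohh WT and 18457, 10048 and 12243 CPM in Dohh-/-, against 1664, 1343, 1379 and 2203 CPM in Odc WT and 3093, 4543, 6078 and 5079 CPM in Odc-/- (difference 2.06 ± 0.37, adjusted p = 0.0041). Prf1, which encodes the pore protein perforin, was at 93, 69.1 and 83.5, 1479, 868 and 1604, 92.8, 67.1, 83 and 138 and 357, 261, 335 and 262 CPM in the same order of groups (difference 2.33 ± 0.36, adjusted p = 0.0014). In both genes every Dohh-/- library was above every Odc-/- library, which in turn were all above both WT groups.

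Steep rises were seen in a run of granzyme genes beside Gzmb on chromosome 14, Gzmd to Gzmg, known from activated killer cells. Gzmd (chr14:56129556-56132608) was at 2.25, 2.01 and 1.38 CPM in Dohh WT and 252, 651 and 1090.3 CPM in Dohh-/-, and at 3.58, 3.82, 5.51 and 14.8 CPM in Odc WT and 54.5, 67, 72.6 and 52.7 CPM in Odc-/- (difference 5.28 ± 0.74, adjusted p = 6.2e-04). Gzme (chr14:56117626-56120625) was at 0.501, 0.302 and 0.115 CPM in Dohh WT (10 counts in all), 117, 321 and 367 CPM in Dohh-/-, 1.51, 1.36, 1.1 and 5.11 CPM in Odc WT and 23.4, 34.2, 33.5 and 23.6 CPM in Odc-/- (difference 5.98 ± 0.83, adjusted p = 6.1e-04). All Dohh-/- libraries exceeded all Odc-/- libraries, and all Dohh WT libraries were below all Odc WT libraries. Gzmf and Gzmg followed the same order, with differences of 5.57 ± 0.96, adjusted p = 0.0029 and 6.82 ± 1.42, adjusted p = 0.0094. Gzmg rose to 723 CPM in Dohh-/- replicate 3 against 30.5 and 81.8 CPM in the other Dohh-/- libraries, and without the 3 libraries that stood apart its adjusted p was 0.050. Without Dohh-/- replicate 3 alone its difference was 4.49. Serpinb9b, a protease inhibitor gene, was at 1.42, 2.41 and 2.3 CPM in Dohh WT, 25.8, 15.3 and 408 CPM in Dohh-/-, 4.13, 2.05, 5.65 and 8.97 CPM in Odc WT and 7.56, 9.57, 14 and 9.85 CPM in Odc-/- (difference 5.22 ± 1.31, adjusted p = 0.023), a call lost without any 1 of the Dohh WT libraries or Odc WT replicate 4 and with no low-count filter (adjusted p = 0.088). Without Dohh-/- replicate 3 its difference was 2.36.

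These granzyme genes are close copies, so reads could be shared between them and each gene's count is uncertain by that much. The longest coding transcripts of Gzmd, Gzme, Gzmf and Gzmg were 82.9 to 90.0% identical in pairs, and the 250 bases before their starts 74.5 to 94.8%. Gzmd and Gzme were the closest pair and are shown here from RefSeq (GRCm38.p6, minus strand, chr14:56132594-56132843 and chr14:56120626-56120875), with capitals for the bases that differ in their alignment.
Gzmd: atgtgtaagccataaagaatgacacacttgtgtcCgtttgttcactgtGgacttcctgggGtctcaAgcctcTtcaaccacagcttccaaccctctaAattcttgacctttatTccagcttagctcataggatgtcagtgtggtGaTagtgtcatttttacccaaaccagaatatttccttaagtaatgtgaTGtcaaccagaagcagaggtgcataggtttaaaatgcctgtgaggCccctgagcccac
Gzme: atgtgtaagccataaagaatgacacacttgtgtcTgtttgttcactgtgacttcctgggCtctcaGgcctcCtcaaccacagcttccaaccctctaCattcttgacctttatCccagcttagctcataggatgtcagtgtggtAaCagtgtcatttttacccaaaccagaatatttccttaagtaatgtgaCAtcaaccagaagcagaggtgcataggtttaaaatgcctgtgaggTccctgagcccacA
The longest coding transcript of Gzmb was 45.7 to 48.3% identical to those of Gzmc to Gzmg.

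Among NK receptors, Klrk1, which encodes the activating receptor NKG2D, was at 20.1, 20.1 and 25.3 CPM in Dohh WT, 221, 275 and 385 CPM in Dohh-/-, 44.8, 38.9, 48 and 51.5 CPM in Odc WT and 85.6, 82.3, 106 and 96.8 CPM in Odc-/- (difference 2.73 ± 0.27, adjusted p = 6.3e-05). Klrd1, which encodes CD94, rose with Dohh only, from 30.5, 25 and 37.1 to 186, 163 and 457 CPM, with 51.6, 35.9, 60 and 51.9 CPM in Odc WT and 60.1, 40.4, 77 and 58.7 CPM in Odc-/- (difference 2.88 ± 0.46, adjusted p = 0.0018). The cytotoxic genes moved beside markers of γδ T cells, which share many of them. The sum of 8 γδ T cell markers was 808 to 1103 CPM in Dohh-/- against 48.9 to 54.5 CPM in Dohh WT, and 159 to 370 CPM in Odc-/- against 24.1 to 62.9 CPM in Odc WT. All 5 tested γδ markers rose in both deletions, and 1 of them, Trdc, was called for the difference (1.49 ± 0.40, adjusted p = 0.031), a call lost without any 1 of the 3 Dohh WT libraries or Odc WT replicates 3 or 4. The NK cell marker Ncr1 was at 0 to 1.22 CPM in Dohh-/- and 0.856 to 2.86 CPM in Odc-/-. Klrb1c, another NK cell marker, was at 0.421, 0.85 and 15.6 CPM in Dohh-/- and at or below 0.302 CPM in Dohh WT, and at 2.12 to 3.42 CPM in Odc-/- and 0 to 0.826 CPM in Odc WT. Dohh-/- replicate 3, the highest for Klrb1c, was also the highest Dohh-/- library for Gzmg, Klrk1, Trdc and the γδ marker Tcrg-C1. It was the lowest for the γδ markers Tcrg-C2 (215, 225 and 178 CPM in Dohh-/-) and Tcrg-C4 (167, 177 and 165 CPM). Gzmb was highest in Dohh-/- replicate 1. The part of γδ T cells and NK cells in these results was not tested.

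Of 24 tested genes of the TH1 program, 11 were called with the Dohh effect above the Odc effect and 1, Cxcr3, below, against 3.23% and 3.87% of all genes (median difference 1.54, against 0.06 over all genes). Over fits without 1 library the count above was 6 to 12, the lowest without Dohh WT replicate 2, and it was 15 without the 3 libraries that stood apart. Tbx21, the T-bet gene, was at 75.1, 112 and 83 CPM in Dohh WT, 280.4, 288 and 592 CPM in Dohh-/-, 117, 139, 113 and 191 CPM in Odc WT and 163, 197, 212 and 170.0 CPM in Odc-/- (difference 1.70 ± 0.37, adjusted p = 0.013). Only the Dohh effect passed the test. Ifng was at 197, 242 and 278 CPM in Dohh WT, 2859, 4571 and 2354 CPM in Dohh-/-, 564, 668, 493 and 1783 CPM in Odc WT and 994, 2154, 2721 and 1878 CPM in Odc-/- (difference 2.63 ± 0.61, adjusted p = 0.017). For Ifng the knockout groups of the 2 tables overlapped while Dohh WT lay wholly below Odc WT (log2 WT difference -1.88, edgeR adjusted p = 0.012), and the call was lost without Dohh WT replicate 1 or 2 (adjusted p up to 0.058).

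Cxcr6, the receptor for CXCL16, was at 11.6, 9.25 and 10.4 CPM in Dohh WT and 131, 113 and 620.2 CPM in Dohh-/-, and at 13.6, 10.6, 17 and 15 CPM in Odc WT and 21.3, 16.9, 31.6 and 25.1 CPM in Odc-/- (difference 4.03 ± 0.68, adjusted p = 0.0025). Cxcr6 stayed called in all fits without 1 library, with differences of 2.78 to 4.42. Ccl5, an effector T cell chemokine, was at 16.9, 24.3 and 19.3, 129.9, 340.4 and 161, 16, 17.3, 19.7 and 23.7 and 28.3, 21.4, 29.6 and 21.2 CPM in the same order (difference 2.99 ± 0.41, adjusted p = 5.1e-04). Neither gene passed the test for an Odc effect. Havcr2, the gene of the inhibitory receptor TIM-3, rose in both deletions and further with Dohh, to 86.2, 72.9 and 214 CPM from 5.76, 3.32 and 6.79 CPM, against 14.6, 26.1, 36.4 and 26.1 CPM from 12, 9.28, 7.44 and 16.1 CPM with Odc (difference 3.35 ± 0.58, adjusted p = 0.0029). Cxcr3, the receptor by which TH1 cells reach inflamed tissue, went the other way, at 17.1, 21 and 20.7 CPM in Dohh WT and 1.16, 2.55 and 3.43 CPM in Dohh-/-, with 14.2, 14.3, 14.9 and 21.2 CPM in Odc WT and 21.1, 15.3, 22 and 16.7 CPM in Odc-/- (difference -3.26 ± 0.39, adjusted p = 2.4e-04). Its call held in all 27 alternative fits. Il12rb2, the IL-12 receptor subunit of TH1 cells, fell in both deletions without a called difference (-0.93 ± 0.48, adjusted p = 0.22).

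**Figure D3:**
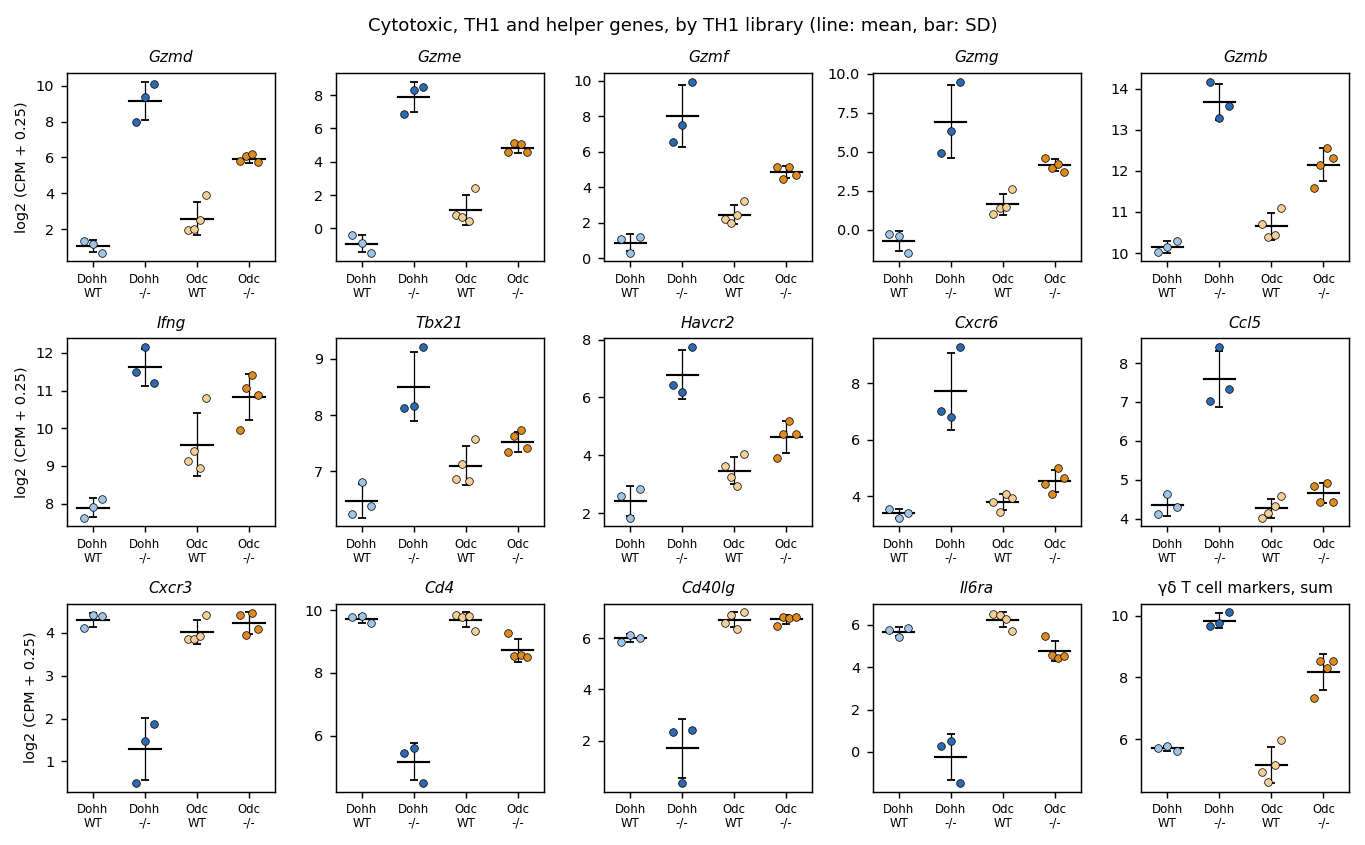
Level of cytotoxic, TH1 and helper genes and of the summed γδ T cell markers in each TH1 library, as log2 of CPM plus 0.25 (y axis), by group (x axis). Points are libraries, lines are group means and bars are SD. For the granzymes both knockout groups lie above their WT and Dohh-/- lies highest, while Cxcr3, Cd4, Cd40lg and Il6ra are low in Dohh-/- only or furthest in Dohh-/-.

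Cd4, Zbtb7b and Cd40lg, which mark or serve helper T cells, fell further with Dohh deletion than with Odc deletion. Cd4 was at 888, 905 and 769.8 CPM in Dohh WT and 42.9, 48 and 22.1 CPM in Dohh-/-, and at 918, 892, 900.1 and 644 CPM in Odc WT and 619.9, 376, 381 and 366 CPM in Odc-/- (difference -3.56 ± 0.37, adjusted p = 7.0e-05). Zbtb7b, the gene of ThPOK, which holds the CD4 lineage against the CD8 fate, was at 153, 149 and 153, 24.5, 16.7 and 45.7, 161, 154, 142 and 120.2 and 99.3, 86.5, 80.6 and 86.2 CPM in the same order (difference -1.67 ± 0.34, adjusted p = 0.0084). Both genes fell in both deletions with no overlap between groups. Cd40lg, the ligand through which helper T cells license B cells, was at 58, 70.3 and 64.9 CPM in Dohh WT and 4.74, 1.02 and 5.09 CPM in Dohh-/-, and at 96.8, 118, 82.4 and 129 CPM in Odc WT and 88.3, 113, 111 and 114 CPM in Odc-/- (difference -4.08 ± 0.42, adjusted p = 7.0e-05). The Odc effect on Cd40lg was 0.00 ± 0.25, adjusted p = 1. Of 16 tested T cell receptor and CD4/CD8 genes 3 were called below (Cd4, Zbtb7b, Trac) and 2 above (Cd3d, Cd3g), against 3.87% and 3.23% of all genes. In the whole list 4 genes fell past 2-fold with Dohh and 1 with Odc, and none rose. Without the 3 libraries that stood apart Trac was no longer called (-0.85, adjusted p = 0.054). The calls of Trac and Cd3d were each lost in 10 of the 14 fits that left out 1 library, and that of Cd3g without Dohh WT replicates 1 or 2 or Odc WT replicate 3. Cd8a was at 4.42, 5.78 and 13.6 CPM in Dohh-/- and 5.26, 3.02 and 6.1 CPM in Dohh WT, and at 21.5, 4.23, 9.92 and 6.7 CPM in Odc-/- and 3.72, 3.14, 5.79 and 20.6 CPM in Odc WT. The fall of Cd4 and Trac ran beside the rise of γδ T cell markers given above, and the part of those cells was not tested.

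Btla, an inhibitory receptor gene of lymphocytes, was at 168, 194 and 175 CPM in Dohh WT and 11.8, 10.2 and 5.31 CPM in Dohh-/-, and at 234, 295, 243 and 313 CPM in Odc WT and 224, 202.2, 157 and 162 CPM in Odc-/- (difference -3.75 ± 0.32, adjusted p = 3.7e-05). Cd200, whose product restrains myeloid cells, was at 115, 151 and 128, 11.8, 10.5 and 9.3, 183, 244, 151 and 267 and 147, 196, 129 and 157 CPM (difference -3.21 ± 0.30, adjusted p = 5.4e-05). Of 20 tested Treg and coinhibitory genes 6 were called below and 2 above (3.87% and 3.23% over all genes), the latter being Pdcd1 and Il10, and without the 3 libraries that stood apart 7 below and 8 above. Over fits without 1 library 5 to 7 were called below and 2 to 7 above. Of 19 naive and memory T cell genes 7 were called below, among them Tcf7, Lef1 and Bach2, and 2 above, Myb and Ly6c2, against 3.87% and 3.23% of all genes. Tcf7, the gene of the memory factor TCF-1, was at 9.1, 15.3 and 8.98 CPM in Dohh WT and 0.948, 0.17 and 3.32 CPM in Dohh-/-, against 59.4, 65.8, 57.6 and 59.2 CPM in Odc WT and 39.8, 92.6, 56.2 and 73.7 CPM in Odc-/- (difference -2.91 ± 0.61, adjusted p = 0.01). Its WT level was already lower in the Dohh table (log2 WT difference -2.44, edgeR adjusted p = 0.0018). Foxp3, the Treg factor, was at 0.737, 3.23 and 0.111 CPM in Dohh-/- against 6.93, 8.45 and 7.71 CPM in Dohh WT, and at 5.78, 6.55, 6.48 and 4.97 CPM in Odc WT and 11.1, 5.84, 10.2 and 11.2 CPM in Odc-/- (difference -3.34 ± 0.72, adjusted p = 0.011). Overlapping genes covered 32% of the exon length of Foxp3, 42% of that of Ldhd and 26% of that of Ifng.

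Among the largest negative differences, Il6ra, which encodes the IL-6 receptor, was at 53.2, 43.2 and 58.1 CPM in Dohh WT and 0.948, 1.19 and 0.111 CPM in Dohh-/-, and at 90.2, 89.4, 76.4 and 52.8 CPM in Odc WT and 43.7, 23.5, 21.7 and 22.7 CPM in Odc-/- (difference -4.69 ± 0.55, adjusted p = 2.1e-04). Sema3b, a secreted semaphorin gene, fell from 52.1, 69.7 and 62.4 to 0.737, 0.51 and 0.996 CPM with Dohh and from 123, 136, 106 and 139 to 57.2, 26.7, 31.2 and 28.1 CPM with Odc (difference -4.47 ± 0.42, adjusted p = 5.4e-05). The Dohh-/- libraries held 17 counts of Il6ra and 19 of Sema3b in all, and the Odc-/- libraries kept more of their WT level. Gfra1, a GDNF receptor gene, was at 1.26, 2.38 and 1.55 CPM in Dohh-/- against 73.8, 59.1 and 61.7 CPM, and at 76.1, 19.6, 20.1 and 24.6 CPM in Odc-/- against 66.4, 61.8, 63.8 and 46.5 CPM (difference -4.50 ± 0.63, adjusted p = 6.2e-04). Gpm6b, Tmie and Ldhd, the last with 2 counts in all in Dohh-/-, completed the group, with differences of -4.16 ± 0.49, adjusted p = 2.1e-04, -4.15 ± 0.53, adjusted p = 3.0e-04 and -4.97 ± 1.02, adjusted p = 0.0085. The counts of Ldhd in Dohh-/- were all in replicate 3, against 331 in WT (WT to Dohh-/- ratio 132, exact 95% interval 36.2 to 1094, counting error only). Fas, the death receptor and p53 target, fell with Dohh only, from 34.4, 36.6 and 37.3 to 8.53, 12.1 and 7.97 CPM, and was at 51.9, 51.7, 56.4 and 51.9 CPM in Odc WT and 62.9, 62.7, 57.6 and 61.5 CPM in Odc-/- (difference -2.14 ± 0.20, adjusted p = 5.4e-05). Of 23 tested p53 targets 6 were called below and 1 above (3 to 6 and 1 to 2 without 1 library), against 3.87% and 3.23% of all genes.

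On the positive side, Filip1, whose product binds filamin, and S100a6, a calcium-binding protein gene of activated cells, rose with Dohh deletion. With Odc deletion every Filip1 library lay below every WT library, and the S100a6 groups overlapped. Filip1 was at 6.76, 3.42 and 6.44 CPM in Dohh WT and 51.8, 37.2 and 139 CPM in Dohh-/-, and at 10.7, 11.3, 13.1 and 13.9 CPM in Odc WT and 5.42, 4.23, 9.26 and 6.17 CPM in Odc-/- (difference 4.74 ± 0.58, adjusted p = 2.5e-04). S100a6 was at 45.9, 51.7 and 53.5, 428, 1118 and 430.1, 48.9, 49.9, 57.6 and 56.6 and 67.1, 61.3, 102 and 47.3 CPM (difference 3.33 ± 0.45, adjusted p = 4.9e-04), highest in Dohh-/- replicate 2, the library with the most myeloid transcripts. Kit, the stem cell factor receptor of mast cells, was at 4.11, 5.27 and 80.8 CPM in Dohh-/- and 2.34, 2.01 and 2.3 CPM in Dohh WT (difference 4.24 ± 1.09, adjusted p = 0.027), and lost its call without any 1 of the 3 Dohh WT libraries, Odc-/- replicates 2 or 4 or Odc WT replicate 3, and with no low-count filter (adjusted p = 0.071). Without Dohh-/- replicate 3 the difference of Kit was 1.52. It was at 11.4, 11.5, 12.7 and 7.86 CPM in Odc WT and 10.8, 6.84, 7.14 and 6.44 CPM in Odc-/-. The sum of 18 basophil and mast cell markers was 466 and 502 CPM in Dohh-/- replicates 2 and 3, 103 CPM in replicate 1 and 70.6 to 89.6 CPM in Dohh WT, and it was 65.6 to 263 CPM in Odc-/- and 38.9 to 69.5 CPM in Odc WT. The part of these cells was not tested.

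A smaller set moved with Odc only. Plaur, the urokinase receptor gene, was at 2.48, 4.23, 2.76 and 7.45 CPM in Odc WT and 17.6, 42.4, 39.4 and 41.4 CPM in Odc-/-, with 2.09, 2.92 and 3.22 CPM in Dohh WT and 2, 5.1 and 1.22 CPM in Dohh-/- (difference -3.10 ± 0.68, adjusted p = 0.012). Lrrk2, a large kinase gene also expressed in B cells, was at 0.964, 1.64, 1.65 and 1.93 CPM in Odc WT and 25.5, 13.1, 8.47 and 6.17 CPM in Odc-/-, and at 1.67, 1.81 and 1.38 and 0.842, 0.68 and 1.22 CPM in the Dohh groups (difference -3.88 ± 0.68, adjusted p = 0.0033). For both genes Odc-/- lay wholly above Odc WT. Nrp1, the neuropilin gene found on thymic Tregs, was at 9.28, 57.9, 20.9 and 36 CPM in Odc-/- and 3.72, 4.91, 4.41 and 6.21 CPM in Odc WT, and at 4.17, 7.04 and 4.03 CPM in Dohh WT and 2.11, 7.65 and 3.87 CPM in Dohh-/- (difference -2.90 ± 0.75, adjusted p = 0.028), a call lost in 8 of the 14 fits that left out 1 library, those without Dohh-/- replicate 1, Dohh WT replicates 1 or 2, Odc-/- replicates 2 or 4 or Odc WT replicates 1, 2 or 3 (adjusted p up to 0.093). Zbp1, an interferon-induced sensor of nucleic acids, was at 56.3, 50.8, 41.6 and 53.1 CPM in Odc WT and 113, 109.7, 108 and 122 CPM in Odc-/-, with 48.4, 60.2 and 70.4 CPM in Dohh WT and 42.6, 55.6 and 67.5 CPM in Dohh-/- (difference -1.27 ± 0.25, adjusted p = 0.0059). Of 27 tested interferon response genes 4 were called below and 1, Usp18, above (2 to 5 and 1 to 2 without 1 library), against 3.87% and 3.23% of all genes.

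Within polyamine metabolism 1 of 22 tested genes was called, with the Dohh effect below, as were 3.87% of all genes. Amd1, the decarboxylase that supplies the aminopropyl groups for spermidine and spermine, was at 26.7, 26.9, 24.3 and 40 CPM in Odc WT and 58.7, 98.7, 83.2 and 93.9 CPM in Odc-/-, all above WT, and at 60.6, 60.2 and 61.9 CPM in Dohh WT and 74, 41.3 and 65 CPM in Dohh-/-, which overlapped (difference -1.52 ± 0.32, adjusted p = 0.01). Dohh WT lay above Odc WT for this gene (log2 WT difference 1.05, edgeR adjusted p = 0.0068), and the Dohh-/- and Odc-/- levels overlapped.

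Of 15 tested TH17 genes 4 were called below and 2 above, of 15 TH2 genes 2 below and 1 above, and of 13 chemokine and chemokine receptor genes 1 below and 4 above. Without 1 library these ran from 4 to 6 below and 0 to 4 above for TH17, 1 to 4 and 0 to 1 for TH2, and 1 and 3 to 8 for chemokines, and over all genes 3.87% were called below and 3.23% above. Of 27 glycolysis and pentose phosphate genes 4 were called above and none below. Ldha, which makes lactate, was at 2008, 2153 and 2160.2 CPM in Dohh WT and 4743, 6261 and 2787 CPM in Dohh-/-, and at 3003, 3257, 3130.0 and 3521 CPM in Odc WT and 3158, 2703, 3122 and 3115 CPM in Odc-/- (difference 1.22 ± 0.30, adjusted p = 0.023), a call lost without Dohh-/- replicate 2, Dohh WT replicates 1 or 2 or Odc-/- replicate 2, and without the 3 libraries that stood apart (0.91, adjusted p = 0.021, below 2-fold). The glycolysis count ran from 0 to 8 over fits without 1 library and was 7 without the 3 libraries. Mitochondrial ribosomal proteins gave 3 called of 75, the respiratory chain 3 of 78 and G2/M genes 3 of 25, all above, beside 3.23% over all genes. These counts rest on the libraries used, at 0 to 34, 0 to 43 and 0 to 8 over fits without 1 library, and 0, 1 and 2 without the 3 libraries that stood apart, where none of the 9 genes kept its call. By edgeR, 0 genes were called among 33 histone acetyltransferases, deacetylases and PRC2 genes (7 at an unadjusted p below 0.05, 0 by DESeq2, 3 by limma voom), 32 TCA cycle and acetyl-CoA genes (6, 0 and 1), 20 aminoacyl-tRNA synthetases (3, 1 and 1), 80 cytosolic ribosomal proteins (16, 1 and 0) and 38 proteasome subunits (14, 1 and 1). The same held for 27 integrated stress response genes (6, 1 and 7), 24 G1/S genes (6, 1 and 3) and 30 ribosome biogenesis genes (6, 0 and 3). Each of the 80 cytosolic ribosomal protein and 38 proteasome genes had a positive difference, with medians of 0.66 and 0.69 against 0.06 over all genes. Over fits without 1 library up to 15 cytosolic ribosomal proteins, 16 proteasome subunits, 8 integrated stress response genes and 7 G1/S genes were called above. Ribosome biogenesis had 11 genes called below without the 3 libraries that stood apart. Atf4, the main integrated stress response factor, passed the adjusted p but not the 2-fold threshold (0.90 ± 0.21, adjusted p = 0.018), which it passed without Dohh-/- replicate 3 (difference 1.001, adjusted p = 0.0035).

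**Figure D4:**
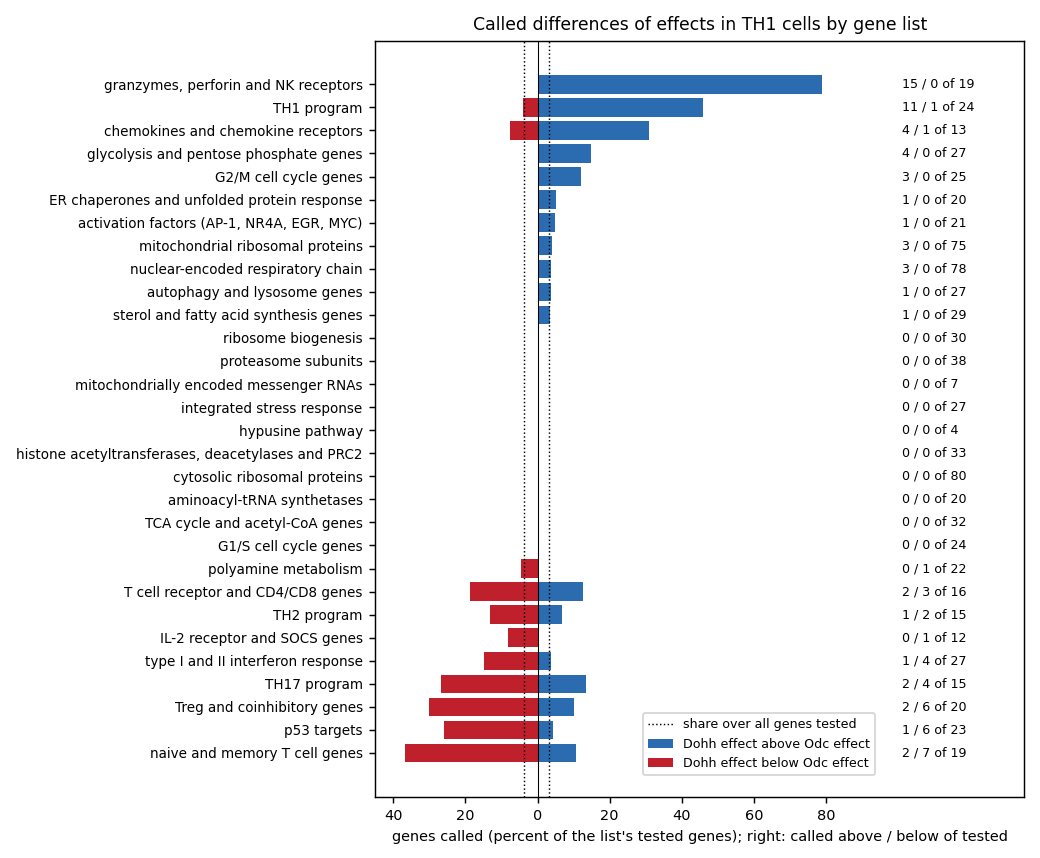
Share of each gene list's tested genes called for the difference of effects in TH1 cells (x axis, percent), to the right where the Dohh effect lay above the Odc effect and to the left where it lay below, with the counts at the right edge. Dotted lines mark the shares over all genes tested, 3.23% and 3.87%. Granzymes and NK receptors (15 of 19) and the TH1 program (11 of 24) reach furthest right.

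The same difference of effects was measured in the other helper subsets, TH2, TH17 and Treg cells, with separate libraries. Of the 806 genes called in TH1 cells, 741 had the same sign in TH2, 710 in TH17 and 711 in Treg cells, and 381, 328 and 401 were also called there with that sign, where 10.3%, 14% and 17.5% of 12924 genes were called in all. Of the 27 opposed genes 20, 12 and 19 were also called with the same sign. The TH1 difference itself departed from the mean of the other subsets for 241 of 12924 genes (1.86%), and for 89 of the 806. The largest fitted three-way differences among the genes described were those of Fam84a (-6.45) and St8sia6 (-6.42), but with no counts in Dohh-/- they depend on the prior count and are no bound. Plaur was at -3.13 in TH1 cells against 2.61 in TH2, 4.49 in TH17 and 1.08 in Treg cells (three-way difference -5.86, edgeR adjusted p = 0.0032). Cxcr3 was at -3.27 in TH1 cells against -0.74, 1.08 and 0.25 in TH2, TH17 and Treg cells (three-way difference -3.47, adjusted p = 8.4e-07). Inhba was at -5.04 against -2.38, 0.12 and -0.80 (three-way difference -4.02, adjusted p = 0.0032). These fits used all 55 libraries mapped to a column of the tables (1 TH2 Odc-/- sample was not analysed here), so that the TH1 values differ slightly from those above.

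**Figure D5:**
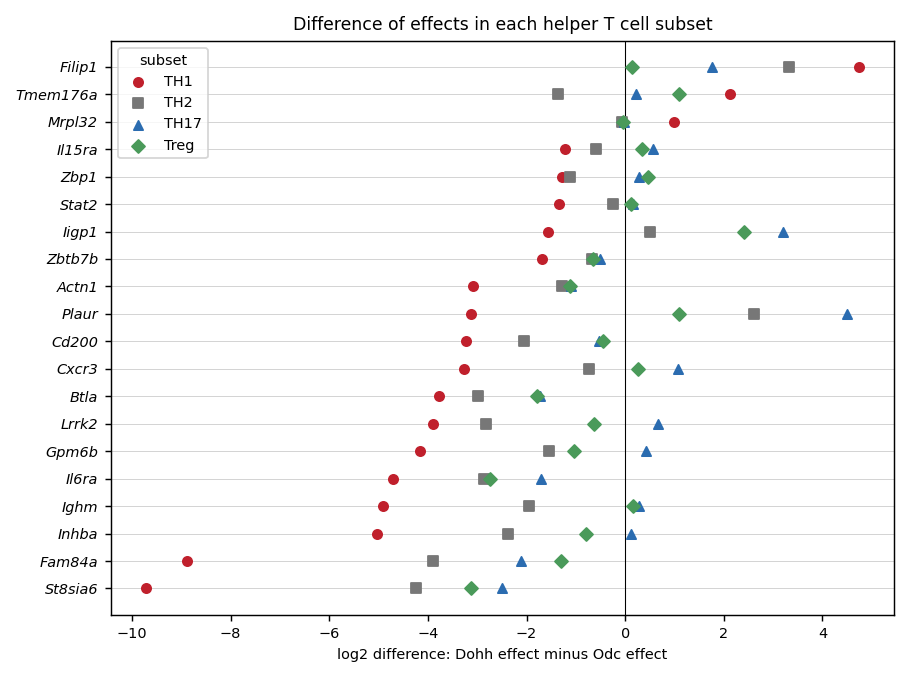
Difference of effects (Dohh effect minus Odc effect, log2, x axis) in TH1, TH2, TH17 and Treg cells for the 20 named genes whose TH1 difference departed from the mean of the other subsets. Each symbol is a subset. The TH1 symbol is the leftmost for every gene with a negative TH1 value and the rightmost for Mrpl32, Tmem176a and Filip1.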

How the data were processed

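The authors deposited raw gene counts, 1 table for each deletion, from stranded polyA-selected libraries (TruSeq stranded mRNA kit, Illumina). The submitters' processing notes name STAR, featureCounts, DESeq2, deepTools and mm10, and versions, strand setting and annotation are not given in the sources used here. Symbols and coordinates came from GENCODE M21 and promoters from RefSeq (GRCm38.p6). Gene starts can differ between these sources, so the windows of Mt1 and Gzmd run a few bases into the printed gene coordinates.

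The 14 TH1 libraries were fitted together by edgeR 4.0.16 (R 4.3.3; robust quasi-likelihood test, TMM normalisation) with 4 group means, after filtering low counts in each table. P-values were adjusted over all 11348 genes by Benjamini-Hochberg. A gene was called at an adjusted p below 0.05 and an absolute log2 difference above 1, and a value after ± is the SE on the log2 scale. CPM values use TMM-scaled library sizes, so that intervals on counts cover counting error only. For other subsets all libraries were fitted together. Checked on simulated data for the TH1 difference, the fit called 11.9% of 67 genes changed 2-fold, 77.6% of 67 changed 4-fold and 92.4% of 66 changed 8-fold. It made 5 false calls among the genes left unchanged. The simulation gave every group the same spread per gene. The real Dohh-/- libraries differed more among themselves than those of the other groups, so these rates may not hold here.

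Genes named by rank were protein coding, called, and at 10 CPM or more in a group. They were the 10 opposed genes with the largest smaller effect, and the 6 largest positive and 6 largest negative differences among the others. The 4 largest of each single-deletion class were added. Up to 4 called members of each list (or 2 where none was called) were named as well, and 6 genes were always named. List members did not all meet the limits above, such as Tox (group means up to 5.43 CPM) and Ighm (an immunoglobulin constant region gene). The members and lists were chosen with earlier results of these data known. The alternatives were RLE size factors, TMM within each table, DESeq2 1.42.0, limma 3.58.1 voom with sample weights, other filters and thresholds, a replicate block, leaving out each library, and, chosen after seeing the data, leaving out the 3 libraries that stood apart.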

Additional observations from a re-analysis of the deposited data

Results flagged for a closer look

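Among 97 genes tested in both Odc groups, 29 values lay far from the other 3 libraries of their group, where chance flags about 1 in 20 of 194 group tests. That rate is no yardstick here, because most genes were chosen as called in these data and can move together. The 194 also include groups too low to be flagged. The Dohh groups were not tested in this way, so single high values there, such as Gzmg in Dohh-/- replicate 3, are not listed. Odc-/- replicate 1 was the highest of its group for Cd22 (100.3 CPM), Cd4 (619.9), Cxcr5 (72.21), Ebf1 (36.68), Gfra1 (76.06), Ighm (875.4), Il6ra (43.67), Kit (10.85) and Sema3b (57.23). It was the lowest for Cd40lg (88.34 CPM), Eif5a (1566), Odc1 (400.4), Plaur (17.55) and Trdc (54.66). Odc WT replicate 4 was the highest for Amd1 (40.01 CPM), Atp5k (64.71), Ccl9 (17.8), Cxcr3 (21.25), Dohh (44.29), Gzme (5.105), Gzmg (5.933), Ifng (1783) and Odc1 (689.2), and the lowest for Cd4 (644.4 CPM) and Gpr83 (1.794). Single values stood apart for Fas in Odc WT replicate 3 (56.37 CPM), St8sia6 in Odc-/- replicate 2 (7.087), Fos in Odc-/- replicate 4 (7.357) and Ldha in Odc-/- replicate 2 (2703).

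The difference of effects in TH1 cells departed from the mean of TH2, TH17 and Treg cells for 20 named genes by edgeR's test of that three-way difference. It was below for Fam84a (-6.45) and St8sia6 (-6.42), both without counts in Dohh-/- and thus dependent on the prior count, and for Plaur (-5.86), Ighm (-4.42), Inhba (-4.02), Iigp1 (-3.60), Cxcr3 (-3.47), Gpm6b (-3.45), Lrrk2 (-2.97), Il6ra (-2.28), Cd200 (-2.21), Actn1 (-1.93), Btla (-1.60), Stat2 (-1.34), Il15ra (-1.33), Zbp1 (-1.16) and Zbtb7b (-1.07), and above for Mrpl32 (1.03), Tmem176a (2.15) and Filip1 (2.99), all on the log2 scale.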

How the results depend on the processing

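The 806 called genes became 316 at an adjusted p below 0.01, 158 by edgeR's test against a 2-fold difference (glmTreat), 1389 with all libraries in 1 fit, 1564 by limma voom and 1356 without the 3 libraries that stood apart. Leaving out 1 library gave 422 to 1872. The 367 positive genes became 117, 52, 754, 786 and 755 in the same order and 564 by DESeq2, and 159 to 988 without 1 library. The 439 negative genes became 199 at the stricter p, 106 by glmTreat and 778 by limma voom, and 263 to 884 without 1 library. The positive share of calls was 32.9% by glmTreat and 55.7% without the 3 libraries. The 27 opposed genes became 16 at the stricter p, 113 with no fold threshold, 1 by glmTreat, 7 at a mean count of at least 50 and 51 without the 3 libraries, and 21 to 42 without 1 library. The 642 genes with different WT levels became 392 at the stricter p, 1923 with no fold threshold, 32 by glmTreat, 969 by limma voom and 411 at a mean count of at least 50, and 361 to 741 without 1 library. The 241 genes of the TH1 difference against other subsets became 54 at the stricter p, 362 by DESeq2, 15 by glmTreat, 602 by limma voom and 154 with no filter, and 114 to 661 without 1 library. The difference of Dohh changed sign to -0.47 and of Dhps to -0.13 without the 3 libraries, and that of Dohh ran from -0.20 (without Dohh-/- replicate 2) to 0.57 over fits without 1 library. The cause of these changes was not tested.

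Whether replicate numbers pair the libraries could not be settled. Of 7 pairs with the same number 3 correlated above 0.1 (r -0.14 to 0.28), and 3 of the WT libraries correlated best with their own number. With 3 or 4 libraries a group these correlations cannot exclude pairing, and the main fit used none. With the replicate number as a block, 584 genes were called, 559 of the 806 among them, 239 were positive, 28 were opposed and 272 departed from other subsets. Each block lay within a single table, so this fit cannot compare WT levels between the tables. The calls of Serpinb9b, Kit, Ldha, Trac and Cd3d were among those lost with this block. Limma voom did not call Cd3d, Cd3g or Trdc. Of 92 called genes named by rule or added, 39 were called in every alternative in which they were tested (26 or 27 of them), and none reversed. With 3 or 4 libraries a group, 2-fold differences were mostly below what the test could call in the simulated data.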
